A study of Mus musculus with 9 samples.

Results

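The core loop of the mammalian circadian clock was described here in mouse medial prefrontal cortex through its 8 genes Per1, Per2, Per3, Cry1, Cry2, Arntl, Clock and Npas2. The genes were taken by symbol, through their NCBI gene IDs, with no cutoff on a measured value. The list was drawn up with earlier results of these data known. All 8 were among the 36172 features of the count table, and all 8 passed the filter on low counts, which left 15144 genes. RNA was sequenced from frozen prefrontal tissue of DBA2/J mice, an inbred strain, with 3 libraries in each of 3 groups. SA:ANH-KDM5Ci mice had 5 days of social defeat (repeated exposure to an aggressor), were of the SA:ANH subtype and received an inhibitor of KDM5C, an H3K4 demethylase. SA:ANH-vehicle mice had the same defeat and subtype and received saline by their treatment label. NS mice were not stressed and received saline by the same label; the series' own text calls it vehicle. All groups share the strain and the tissue. The inhibitor's name, dose and timing, how the SA:ANH subtype was told from others, the sex and age of the mice and the hour of tissue collection are not given in the sources used here.

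In the clock, the proteins of Arntl (also called Bmal1) and Clock pair up and switch on genes that carry E-boxes, among them the Period and Cryptochrome genes. The Period and Cryptochrome proteins then return to the nucleus and block that pair, so that transcripts of the Period genes and of Arntl peak at opposite times of day. A second loop acts on Arntl, Clock and Npas2 through Rev-erb repressors and ROR activators, and D-box factors such as Dbp act on the Period genes. Npas2 is a paralog of Clock that can take its place as partner of Arntl in the forebrain. Per1 also responds quickly to neuronal activity, through CREB, and to glucocorticoid hormone, through the glucocorticoid receptor.

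The letters behind these loops are shown in RefSeq promoter windows of 250 bases before to 50 after an annotated start (GRCm38.p6), which matched 7 of the 8 members, all but Per2, with 11 windows. Capitals mark an E-box (CACGTG) in Per1 and Cry1, a pair of D-boxes (TTATGTAA) in Per3 and a Rev-erb/ROR element (TAGGTCA) in Arntl, 5′ to 3′ on the strand of the gene.
Per1 (chr11:69098699-69098998, plus strand): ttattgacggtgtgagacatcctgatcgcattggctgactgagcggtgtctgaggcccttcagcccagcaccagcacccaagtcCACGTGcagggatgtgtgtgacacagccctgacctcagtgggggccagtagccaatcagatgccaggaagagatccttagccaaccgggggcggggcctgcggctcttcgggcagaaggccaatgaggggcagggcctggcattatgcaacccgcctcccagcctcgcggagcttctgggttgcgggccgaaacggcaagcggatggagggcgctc
Cry1 (chr10:85185005-85185304, minus strand): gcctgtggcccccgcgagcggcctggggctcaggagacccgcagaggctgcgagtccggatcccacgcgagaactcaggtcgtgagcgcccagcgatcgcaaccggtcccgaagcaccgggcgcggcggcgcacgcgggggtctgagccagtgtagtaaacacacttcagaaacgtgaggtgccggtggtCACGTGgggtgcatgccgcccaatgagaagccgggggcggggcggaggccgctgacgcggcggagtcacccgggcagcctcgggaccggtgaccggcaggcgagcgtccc
Per3 (chr4:151044616-151044915, minus strand): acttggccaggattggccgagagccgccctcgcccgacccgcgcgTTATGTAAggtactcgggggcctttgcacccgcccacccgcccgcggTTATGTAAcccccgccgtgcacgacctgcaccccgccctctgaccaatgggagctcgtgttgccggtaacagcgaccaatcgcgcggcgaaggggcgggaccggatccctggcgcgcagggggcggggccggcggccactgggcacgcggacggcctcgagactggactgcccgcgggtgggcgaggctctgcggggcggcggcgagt
Arntl (chr7:113207261-113207560, plus strand): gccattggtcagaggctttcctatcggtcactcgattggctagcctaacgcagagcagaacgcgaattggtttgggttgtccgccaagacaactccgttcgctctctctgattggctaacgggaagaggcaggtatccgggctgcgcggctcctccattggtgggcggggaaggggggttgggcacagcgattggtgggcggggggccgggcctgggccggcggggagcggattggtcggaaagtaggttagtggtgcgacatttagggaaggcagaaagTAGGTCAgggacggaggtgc
Both strands were searched, and these motifs share no letters in the windows shown. Of all 32851 promoter windows, 7.15% held the E-box, 0.938% the D-box and 2.61% the Rev-erb/ROR element. The E-boxes began at base -166 in Per1 and base -60 in Cry1, and the D-boxes of Per3 at bases -205 and -158. The element of Arntl began at base 31, after the annotated start, and the other Arntl window, which starts 5′ of it, held none of the motifs. The other Per1 window and all windows of Cry2, Clock and Npas2 held none of them either. The CRE (TGACGTCA), in 1.79% of all windows, and the glucocorticoid receptor element (GNACA and TGTNC with 3 bases between), in 0.475%, had 0 matches in the 11 windows. A match describes letters only, and these windows leave out more distant elements.

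The cortex held all members at levels well above the counting floor, from 412 counts (Cry1) to 6707 counts (Cry2) per library. Levels are given as CPM, the count scaled to the size of its library (with TMM), and per kilobase of annotated exons where genes are compared. Cry2, a Cryptochrome repressor, was the highest per length in every group, at 26.0 ± 0.592 CPM per kb in SA:ANH-KDM5Ci, 24.99 ± 0.796 in SA:ANH-vehicle and 24.95 ± 0.944 in NS (SD, n = 3). Per1 followed at 18.6 ± 1.42, 12.9 ± 1.21 and 13.5 ± 2.91 CPM per kb in the same groups, and Npas2 at 13.2 ± 1.36, 11.4 ± 0.471 and 12.2 ± 0.262. Per1 and Npas2 lay within 1 SD of each other in NS and apart in SA:ANH-KDM5Ci. Per2 held the last place in NS at 3.60 ± 0.145 CPM per kb, below Cry1 at 4.10 ± 0.211. In both stressed groups Per2 lay above Cry1, at 6.11 ± 1.37 against 5.27 ± 0.754 CPM per kb in SA:ANH-KDM5Ci, within their spread, and at 7.19 ± 1.31 against 5.08 ± 0.188 in SA:ANH-vehicle. Clock, Arntl and Per3 lay between 5.38 and 7.56 CPM per kb in all groups. On GRCm38, Per1 (NCBI gene 18626) lies at chr11:69095108-69109965, Per2 (18627) at chr1:91415977-91459351, Per3 (18628) at chr4:150997018-151044707, Cry1 (12952) at chr10:85131700-85185054 and Cry2 (12953) at chr2:92403646-92434085. Arntl (11865) lies at chr7:113178471-113314126, Clock (12753) at chr5:76209868-76305603 and Npas2 (18143) at chr1:39193702-39363240. The exon length is the union of all annotated isoforms, so the order is approximate.

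**Figure D1:**
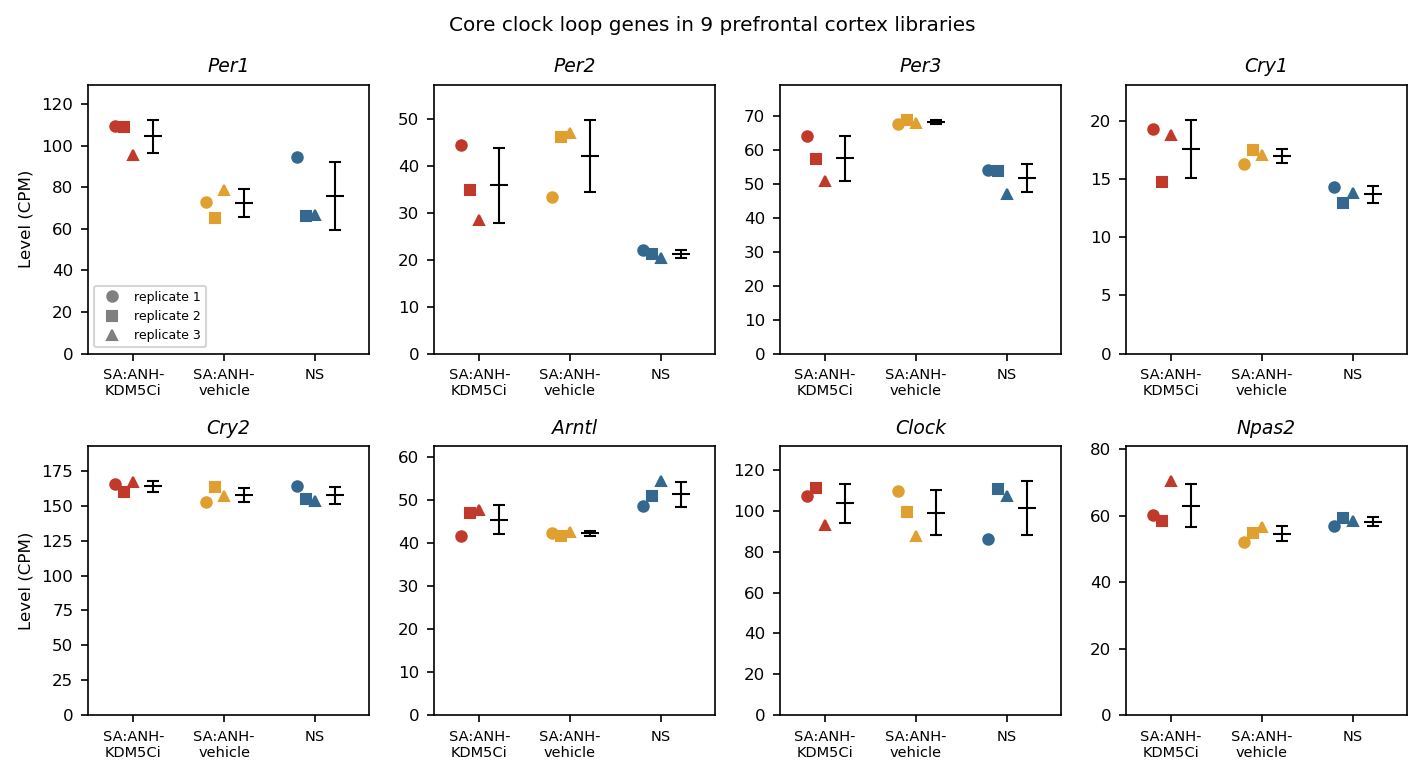
CPM of the 8 core clock genes in each library, with replicates as symbols and the mean ± SD of 3 libraries as black bars. Per1 is highest in the SA:ANH-KDM5Ci libraries at 95.4 to 109.5 CPM, Per2 is lowest in the NS libraries at 20.2 to 21.9 CPM, and Arntl is highest there at 48.5 to 54.3 CPM.

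No member was called in any of the 3 comparisons when edgeR's quasi-likelihood test was adjusted by Benjamini-Hochberg over all 15144 genes, at a threshold of 0.05. In SA:ANH-KDM5Ci against SA:ANH-vehicle 2.51% of all genes were called, in SA:ANH-KDM5Ci against NS 3.97%, and in SA:ANH-vehicle against NS 0.0132%. At an unadjusted p under 0.05 there were 3, 4 and 4 of the 8 members in these comparisons, where all genes had 14.2%, 18.5% and 8.21%. DESeq2 called Per1 in the first comparison, Per2 and Cry1 in the second and Per2, Per3 and Arntl in the third. Of all genes it called 477, 826 and 81. By limma-voom the members called were Per1, Per2 and none, where 346, 560 and 3 of all genes were called. Groups did not overlap for 3 of 8 members in the first comparison (18.9% of all genes), 4 of 8 in the second (23.5%) and 5 of 8 in the third (15.1%). The median size of the log2 fold change was 0.16, 0.16 and 0.19 over the members and 0.08, 0.09 and 0.07 over all genes. Each pair of comparisons shares a group of libraries, so their values are not independent.

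**Figure D2:**
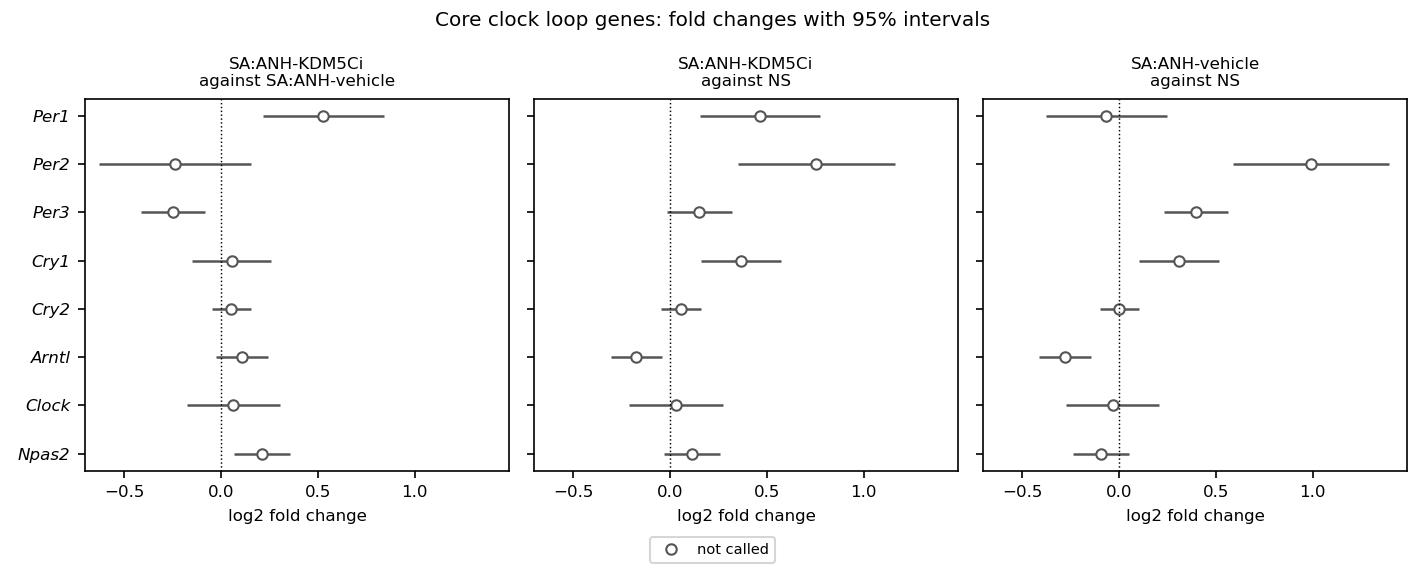
Log2 fold changes of the 8 members with 95% intervals from edgeR's quasi-likelihood fit, in the 3 comparisons. Open points mark genes that were not called, which all 8 were in each comparison, and the estimate farthest from 0 is that of Per2 in SA:ANH-vehicle against NS, at 0.99.

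Per1, a Period gene that hormones and activity can induce, was highest in the mice given the inhibitor. Its level was 109.5, 109.1 and 95.4 CPM in SA:ANH-KDM5Ci, against 73.1, 65.3 and 79.0 CPM in SA:ANH-vehicle. All 3 SA:ANH-KDM5Ci libraries lay above all 3 SA:ANH-vehicle libraries, with a log2 fold change of 0.53 (SE 0.14, 95% interval 0.22 to 0.84), or 1.44-fold, and an adjusted p of 0.0983 by edgeR. The NS libraries had 94.7, 66.2 and 66.5 CPM, so that replicate 1 of NS stood apart from the others of its group and just below the lowest SA:ANH-KDM5Ci library. Against NS the log2 fold change of SA:ANH-KDM5Ci was 0.46 (SE 0.14, adjusted p = 0.109 by edgeR), and that of SA:ANH-vehicle was -0.07 (SE 0.14, adjusted p = 0.952).

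The call of Per1 changed with NS replicate 1 and with the method. Without that library the adjusted p by edgeR was 0.00195 for SA:ANH-KDM5Ci against SA:ANH-vehicle, at a log2 fold change of 0.53, and 0.000933 against NS, at 0.66. Over all alternatives the adjusted p ran from 0.00195 to 0.275 and from 0.000933 to 0.295. NS replicate 1 takes no part in the first of these fold changes and enters it through the spread that all groups share. With only the 6 libraries of the 2 groups in the fit, the adjusted p of Per1 in SA:ANH-KDM5Ci against SA:ANH-vehicle was 0.00580. With all 9 libraries it was 0.0443 by edgeR without robust moderation, 0.0471 by DESeq2 and 0.0431 by limma-voom.

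Genes that respond to the same inputs as Per1 were set beside it. Fos, an activity-induced transcription factor, was at 14.3, 18.5 and 12.6 CPM in SA:ANH-KDM5Ci, at 29.7, 10.8 and 15.1 CPM in SA:ANH-vehicle and at 45.7, 8.19 and 8.43 CPM in NS. Within NS, the library with high Fos was the one with high Per1, while the SA:ANH-KDM5Ci libraries had higher Per1 than that library with less Fos. Within SA:ANH-vehicle, replicate 1 had the highest Fos, but its Per1 of 73.1 CPM lay between those of replicates 2 and 3 (65.3 and 79.0 CPM). Sgk1, which encodes a kinase of the glucocorticoid response, stood at 161, 134 and 143 CPM in SA:ANH-KDM5Ci, against 56.6, 53.1 and 51.6 CPM in SA:ANH-vehicle and 57.6, 48.4 and 52.9 CPM in NS. Fkbp5, a co-chaperone of the glucocorticoid receptor, was at 65.6, 49.0 and 49.5 CPM in SA:ANH-KDM5Ci, against 30.4, 33.1 and 32.5 CPM in SA:ANH-vehicle and 21.7, 23.6 and 23.2 CPM in NS. Like Per1, both were higher in every SA:ANH-KDM5Ci library than in any SA:ANH-vehicle library, and Fkbp5, unlike Per1, was also higher in every SA:ANH-vehicle library than in any NS library. Tsc22d3, a leucine zipper protein that glucocorticoids induce, averaged 85.2 ± 6.45 CPM in SA:ANH-KDM5Ci, 52.1 ± 3.91 CPM in SA:ANH-vehicle and 42.1 ± 4.58 CPM in NS (SD, n = 3). Sgk1, Fkbp5 and Tsc22d3 rose in SA:ANH-KDM5Ci against both other groups by edgeR, and Fos was called in neither (adjusted p = 0.903 against SA:ANH-vehicle and 0.808 against NS). Of the 8 glucocorticoid response genes listed, 6 rose against SA:ANH-vehicle (0.891% of all genes) and 6 against NS (1.86%). Zbtb16 (adjusted p = 0.579 and 0.0729 by edgeR) and Dusp1 (0.749 and 0.934) were called in neither. Of the 8 immediate early genes listed, 6 had a negative log2 fold change in SA:ANH-KDM5Ci against SA:ANH-vehicle. The 2 positive ones were Fosb (0.16) and Arc (0.04). Against NS 7 were negative and 1, Fosb, was positive (0.19). The signs against NS take in NS replicate 1, where the 8 genes summed to 1033 CPM. Their sum was 286 and 273 CPM in NS replicates 2 and 3, below the SA:ANH-KDM5Ci libraries at 433, 453 and 373 CPM. It was 716, 315 and 471 CPM in SA:ANH-vehicle. Without NS replicate 1, the log2 fold change of Fos in SA:ANH-KDM5Ci against NS was 0.86 (adjusted p = 0.375 by edgeR). The part of these inputs in the level of Per1 was not tested.

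**Figure D3:**
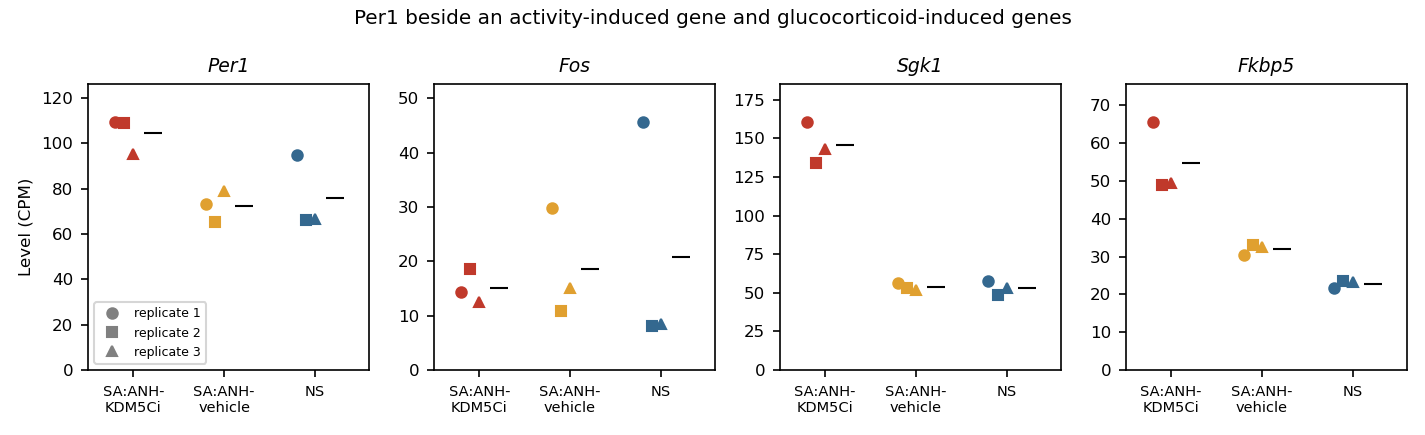
CPM of Per1, of Fos as an activity-induced gene, and of Sgk1 and Fkbp5 as glucocorticoid-induced genes in each library, with group means as black lines. NS replicate 1 is high in Per1 and Fos (94.7 and 45.7 CPM), and the SA:ANH-KDM5Ci libraries are high in Per1, Sgk1 and Fkbp5. Fos in SA:ANH-KDM5Ci, at 12.6 to 18.5 CPM, lies below NS replicate 1 and above NS replicates 2 and 3 (8.19 and 8.43 CPM). Within its group, SA:ANH-vehicle replicate 1 is high in Fos but not in Per1 (29.7 and 73.1 CPM).

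Per2, a core repressor of the loop, showed the largest fold change of the members. It was at 44.3, 34.7 and 28.4 CPM in SA:ANH-KDM5Ci, at 33.3, 46.1 and 47.0 CPM in SA:ANH-vehicle and at 21.9, 21.1 and 20.2 CPM in NS. Every stressed library lay above every NS library, while the 2 stressed groups overlapped. SA:ANH-vehicle stood at 1.99-fold of NS (log2 0.99, SE 0.18, 95% interval 0.59 to 1.40, adjusted p = 0.153 by edgeR) and SA:ANH-KDM5Ci at 1.69-fold (log2 0.76, SE 0.18, interval 0.35 to 1.16, adjusted p = 0.0551). The difference between SA:ANH-KDM5Ci and SA:ANH-vehicle was -0.24 on the log2 scale (SE 0.17, interval -0.63 to 0.155, adjusted p = 0.620). It was farthest from 0 without SA:ANH-KDM5Ci replicate 1, at -0.42, and nearest without its replicate 3, at -0.09, and it also moved by over 1.5 times without SA:ANH-vehicle replicate 1 or 3.

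Several settings moved Per2 over the threshold. Against NS, SA:ANH-KDM5Ci had an adjusted p by edgeR of 0.0165 without SA:ANH-vehicle replicate 1 and 0.0304 without SA:ANH-KDM5Ci replicate 3, and SA:ANH-vehicle had 0.0476 without SA:ANH-KDM5Ci replicate 1. The range over all alternatives was 0.00474 to 0.176 for SA:ANH-KDM5Ci and 0.000588 to 0.501 for SA:ANH-vehicle, and the sign was the same in all 18 alternatives of both.

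Per3, a Period gene with a lesser part in the loop, was highest in stressed mice given vehicle. It was at 64.2, 57.4 and 51.0 CPM in SA:ANH-KDM5Ci, at 67.8, 69.0 and 67.8 CPM in SA:ANH-vehicle and at 54.2, 53.8 and 47.0 CPM in NS. The SA:ANH-vehicle libraries lay above all others, and the SA:ANH-KDM5Ci libraries overlapped with NS. The log2 fold change was 0.40 for SA:ANH-vehicle against NS (SE 0.08, interval 0.23 to 0.57, adjusted p = 0.115 by edgeR) and -0.25 for SA:ANH-KDM5Ci against SA:ANH-vehicle (SE 0.08, interval -0.41 to -0.08, adjusted p = 0.132). For SA:ANH-KDM5Ci against NS it was 0.15 (SE 0.08, adjusted p = 0.324), and ran from 0.06 without SA:ANH-KDM5Ci replicate 1 to 0.23 without its replicate 3, with a move of over 1.5 times without NS replicate 3 too. For SA:ANH-vehicle against NS the adjusted p without SA:ANH-KDM5Ci replicate 3 was 0.0428, in a range over all alternatives from 0.00180 to 0.492. For SA:ANH-KDM5Ci against SA:ANH-vehicle it was 0.0477 without SA:ANH-KDM5Ci replicate 1, at -0.33, in a range up to 0.390.

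Of the Cryptochrome repressors, Cry1 stood higher in the stressed libraries and Cry2 overlapped between all groups. Cry1 was at 19.3, 14.7 and 18.8 CPM in SA:ANH-KDM5Ci, at 16.3, 17.5 and 17.1 CPM in SA:ANH-vehicle and at 14.3, 12.9 and 13.8 CPM in NS. Every stressed library lay above every NS library, by a narrow gap for SA:ANH-KDM5Ci replicate 2. The log2 fold change of Cry1 against NS was 0.37 in SA:ANH-KDM5Ci (SE 0.10, interval 0.16 to 0.57, adjusted p = 0.0511 by edgeR) and 0.31 in SA:ANH-vehicle (SE 0.10, interval 0.10 to 0.52, adjusted p = 0.381). Between SA:ANH-KDM5Ci and SA:ANH-vehicle it was 0.06 (SE 0.09, interval -0.15 to 0.26). Without SA:ANH-KDM5Ci replicate 2 the adjusted p of SA:ANH-KDM5Ci against NS was 0.00551, at 0.48, and without SA:ANH-vehicle replicate 1 it was 0.0499. Its range over all alternatives was 0.00551 to 0.188.

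Cry2 was at 160 to 167 CPM in SA:ANH-KDM5Ci, at 153 to 163 CPM in SA:ANH-vehicle and at 153.5 to 164.5 CPM in NS, and all groups overlapped. Its log2 fold changes were 0.05 for SA:ANH-KDM5Ci against SA:ANH-vehicle, 0.06 for SA:ANH-KDM5Ci against NS and 0.00 for SA:ANH-vehicle against NS, with an SE of 0.05 each. The interval for SA:ANH-KDM5Ci against NS reached from -0.04 to 0.16, and in each comparison Cry2 had the smallest SE of the members.

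Among the activators, Arntl had its highest libraries in NS, where Per2 had its lowest. It was at 41.5, 46.9 and 47.7 CPM in SA:ANH-KDM5Ci, at 42.3, 41.6 and 42.6 CPM in SA:ANH-vehicle and at 48.5, 50.8 and 54.3 CPM in NS. All stressed libraries lay below all NS libraries. The log2 fold change against NS was -0.17 in SA:ANH-KDM5Ci (SE 0.06, interval -0.31 to -0.04, adjusted p = 0.151 by edgeR) and -0.28 in SA:ANH-vehicle (SE 0.06, interval -0.41 to -0.15, adjusted p = 0.173). For SA:ANH-KDM5Ci against SA:ANH-vehicle it was 0.11 (SE 0.06, interval -0.03 to 0.24, adjusted p = 0.499). Leaving out SA:ANH-KDM5Ci replicate 1 gave 0.17 for this value and -0.11 against NS, and leaving out replicate 3 of that group gave 0.07 against SA:ANH-vehicle. Leaving out any 1 library moved no call of Arntl, and of all alternatives DESeq2 alone called SA:ANH-vehicle against NS, at an adjusted p of 0.0208 in a range up to 0.590.

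Neither partner of Arntl separated both stressed groups from NS. Clock was at 107, 111 and 92.9 CPM in SA:ANH-KDM5Ci, at 110.0, 99.5 and 87.8 CPM in SA:ANH-vehicle and at 86.3, 110.7 and 107 CPM in NS. The groups overlapped throughout, and the log2 fold changes ran from -0.03 to 0.06 with an SE of 0.11. Npas2 was at 60.3, 58.3 and 70.4 CPM in SA:ANH-KDM5Ci, at 52.2, 54.7 and 56.7 CPM in SA:ANH-vehicle and at 56.9, 59.4 and 58.3 CPM in NS. The SA:ANH-vehicle libraries lay below all others, and SA:ANH-KDM5Ci overlapped with NS. The log2 fold change of Npas2 was 0.21 for SA:ANH-KDM5Ci against SA:ANH-vehicle (SE 0.07, interval 0.07 to 0.36, adjusted p = 0.143 by edgeR), 0.12 for SA:ANH-KDM5Ci against NS (SE 0.07, adjusted p = 0.389) and -0.10 for SA:ANH-vehicle against NS (SE 0.07, adjusted p = 0.785). Without SA:ANH-KDM5Ci replicate 3, the highest Npas2 library, the value was 0.12 against SA:ANH-vehicle and 0.03 against NS.

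Because Period genes and Arntl peak at opposite phases, their ratio was taken within each library, which needs no scaling between libraries. The log2 ratio of Per2 to Arntl was 0.09, -0.43 and -0.75 in SA:ANH-KDM5Ci, -0.35, 0.15 and 0.14 in SA:ANH-vehicle and -1.15, -1.27 and -1.42 in NS. The stressed libraries all lay above the NS libraries, and the stressed groups overlapped. For Per3 the mean log2 ratio to Arntl was 0.34 ± 0.27 in SA:ANH-KDM5Ci, 0.69 ± 0.03 in SA:ANH-vehicle and 0.01 ± 0.19 in NS (SD, n = 3). For Per1 it was 1.21 ± 0.20 in SA:ANH-KDM5Ci, 0.78 ± 0.12 in SA:ANH-vehicle and 0.55 ± 0.36 in NS, with NS replicate 1 at 0.96. The group with the highest mean ratio was SA:ANH-vehicle for Per2 and Per3 and SA:ANH-KDM5Ci for Per1. These ratios are a description with no test.

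**Figure D4:**
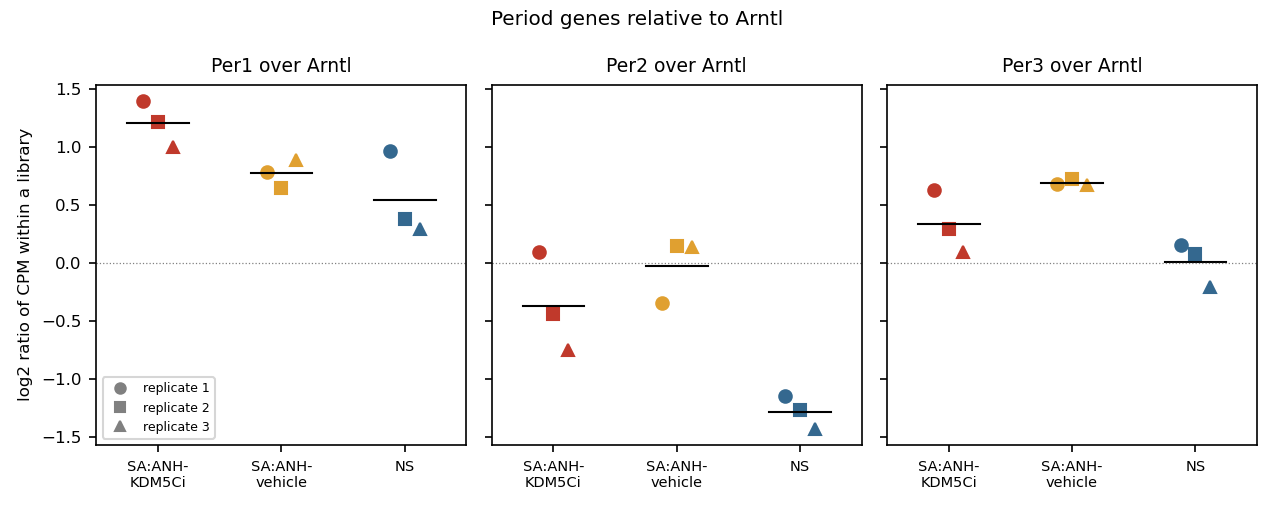
Log2 ratio of the CPM of each Period gene to that of Arntl within each library, with group means as black lines. The ratio of Per2 is lowest in NS, at -1.42 to -1.15, and the ratio of Per1 is highest in SA:ANH-KDM5Ci, at 1.00 to 1.40.

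Libraries within a group also differed in this ratio. In SA:ANH-KDM5Ci, replicate 1 had the highest Per2 and Per3 and the lowest Arntl (44.3, 64.2 and 41.5 CPM), and replicate 3 had the lowest Per2 and Per3 and the highest Arntl (28.4, 51.0 and 47.7 CPM). In NS the highest Per2 and the lowest Arntl were also in 1 library, replicate 1, but Per2 differed little between its libraries (21.9, 21.1 and 20.2 CPM). In SA:ANH-vehicle, Per2 spread from 33.3 to 47.0 CPM at nearly the same Arntl, 41.6 to 42.6 CPM. SA:ANH-KDM5Ci replicate 1 also had the highest summed level of striatal neuron genes of the 9 libraries (550.0 CPM), and its part in these values was not tested. Without a known hour of collection, none of these levels can be placed on a daily curve.

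Since no member was called, the genes most like a member in pattern were looked up after the values had been seen, by Pearson's r of log2 CPM over the 9 libraries, among 12919 genes with a mean of at least 1 CPM. For Per3 the most alike was Dbp, a D-box activator and clock output gene (r = 0.94), followed by Gpr75 and Igf1r (both 0.94). For Per2 they were Zc3h11a (0.96), Pnn (0.96) and Purg (0.94), and for Per1 Irf2bp2 (0.97), Ctdp1 (0.97) and Spata2l (0.96). For Arntl they were Ptgfrn (0.97), Psmf1 (0.97) and Armcx5 (0.94). With 3 groups of 3 libraries such values describe these libraries only, and a search among 12919 genes returns high values by its nature.

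The wider clock was read from 24 further genes in 4 lists, of which 22 were tested. Chrono, another name of Ciart, matched no symbol of its own, and Bhlhe41 was listed at 0 in all libraries. In SA:ANH-KDM5Ci against SA:ANH-vehicle 0 rose and 1 fell by edgeR, where 0.891% of all genes rose and 1.62% fell, with 4 of the 22 at an unadjusted p under 0.05 (14.2% of all genes), 3 called by DESeq2 (477 of all genes) and 1 by limma-voom (346). In SA:ANH-KDM5Ci against NS 1 rose and 2 fell, where 1.86% of all genes rose and 2.11% fell, with 10 of the 22 at an unadjusted p under 0.05 (18.5% of all genes), 7 called by DESeq2 (826 of all genes) and 3 by limma-voom (560). In SA:ANH-vehicle against NS 0 were called by edgeR (0.0132% of all genes), with 6 at an unadjusted p under 0.05 (8.21%), 3 called by DESeq2 (81 of all genes) and 0 by limma-voom (3). Without NS replicate 1 the number called for SA:ANH-KDM5Ci against NS was 5. It was 2 for SA:ANH-KDM5Ci against SA:ANH-vehicle without replicate 1 of either group. For SA:ANH-vehicle against NS it was 2 without SA:ANH-KDM5Ci replicate 3, and 1 without replicate 1 of either stressed group. The median log2 fold change of the 22 genes was -0.02, 0.10 and 0.07 in these comparisons, and that of all genes 0.00 in each.

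Usp2, a deubiquitinase that acts on clock proteins, was lower in SA:ANH-KDM5Ci than in both other groups. It was at 69.3, 71.8 and 71.5 CPM in SA:ANH-KDM5Ci, at 82.4, 87.5 and 84.2 CPM in SA:ANH-vehicle and at 94.0, 93.1 and 89.5 CPM in NS, with no overlap between any of the groups. Its log2 fold change in SA:ANH-KDM5Ci was -0.26 against SA:ANH-vehicle (SE 0.05, adjusted p = 0.00907 by edgeR) and -0.38 against NS (SE 0.05, adjusted p = 0.000464). For SA:ANH-vehicle against NS it was -0.12 (SE 0.05, adjusted p = 0.507 by edgeR). Without SA:ANH-vehicle replicate 2 the first call was lost (log2 -0.23, adjusted p = 0.0676), the upper end of a range from 0.000200.

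The Rev-erb repressors of Arntl went apart. Nr1d1 (Rev-erb alpha) fell against NS in SA:ANH-KDM5Ci, at 98.1, 106 and 102.5 CPM against 137, 129 and 134 CPM in NS (log2 -0.39, SE 0.06, adjusted p = 0.00349 by edgeR), with 130.4, 109 and 119 CPM in SA:ANH-vehicle. Nr1d2 (Rev-erb beta) rose in the same comparison, at 163, 166 and 154 CPM against 132, 138 and 134.5 CPM in NS (log2 0.26, SE 0.05, adjusted p = 0.00992). The call of Nr1d2 was lost without NS replicate 3 (adjusted p = 0.0506) or SA:ANH-KDM5Ci replicate 1 (adjusted p = 0.0512), where the alternatives ranged from 5.30e-05 to 0.0512. Its SA:ANH-vehicle libraries lay at 175, 165 and 163 CPM. Their log2 fold change against NS was 0.32 (adjusted p = 0.0579), which was called without SA:ANH-KDM5Ci replicate 3 (0.0257, in a range from 4.32e-06 to 0.372). For Nr1d1 the log2 fold change of SA:ANH-KDM5Ci against SA:ANH-vehicle was -0.23 (adjusted p = 0.0906), called without SA:ANH-vehicle replicate 2 (0.0423, in a range from 0.0413 to 0.255).

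Of the D-box activators, Dbp was at 85.1, 72.5 and 70.3 CPM in SA:ANH-KDM5Ci, at 85.5, 95.7 and 103 CPM in SA:ANH-vehicle and at 69.2, 65.1 and 60.4 CPM in NS. Like Per3, it had its 3 highest libraries in SA:ANH-vehicle. Its log2 fold change was -0.32 for SA:ANH-KDM5Ci against SA:ANH-vehicle (SE 0.08, adjusted p = 0.0721 by edgeR), 0.23 for SA:ANH-KDM5Ci against NS (SE 0.08, adjusted p = 0.169; 0.14 without SA:ANH-KDM5Ci replicate 1) and 0.54 for SA:ANH-vehicle against NS (SE 0.08, adjusted p = 0.0579). Dbp was called for SA:ANH-KDM5Ci against SA:ANH-vehicle without SA:ANH-vehicle replicate 1 (adjusted p = 0.0412) or SA:ANH-KDM5Ci replicate 1 (0.0297), in a range from 0.0185 to 0.265. For SA:ANH-vehicle against NS it was called without either of these (0.0404 and 0.0236) or SA:ANH-KDM5Ci replicate 3 (0.0455), in a range from 3.78e-06 to 0.372. Tef and Hlf, its relatives, had log2 fold changes of 0.21 and 0.22 for SA:ANH-KDM5Ci against NS and 0.23 and 0.25 for SA:ANH-vehicle against NS (adjusted p = 0.0674, 0.0901, 0.258 and 0.297 by edgeR). Without SA:ANH-vehicle replicate 1 Hlf was called for SA:ANH-KDM5Ci against NS (adjusted p = 0.0492, in a range from 0.0326 to 0.316). Ciart, a repressor of the Arntl and Clock pair, and Csnk1e, a kinase that marks Period proteins for breakdown, were at 0.41 and 0.21 for SA:ANH-KDM5Ci against NS (adjusted p = 0.0848 and 0.0848). Without SA:ANH-KDM5Ci replicate 3 Ciart was called (adjusted p = 0.0492), and without NS replicate 1 both were called, at 0.55 (adjusted p = 0.0224) and 0.29 (adjusted p = 0.0194), in ranges up to 0.286 and 0.297.

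**Figure D5:**
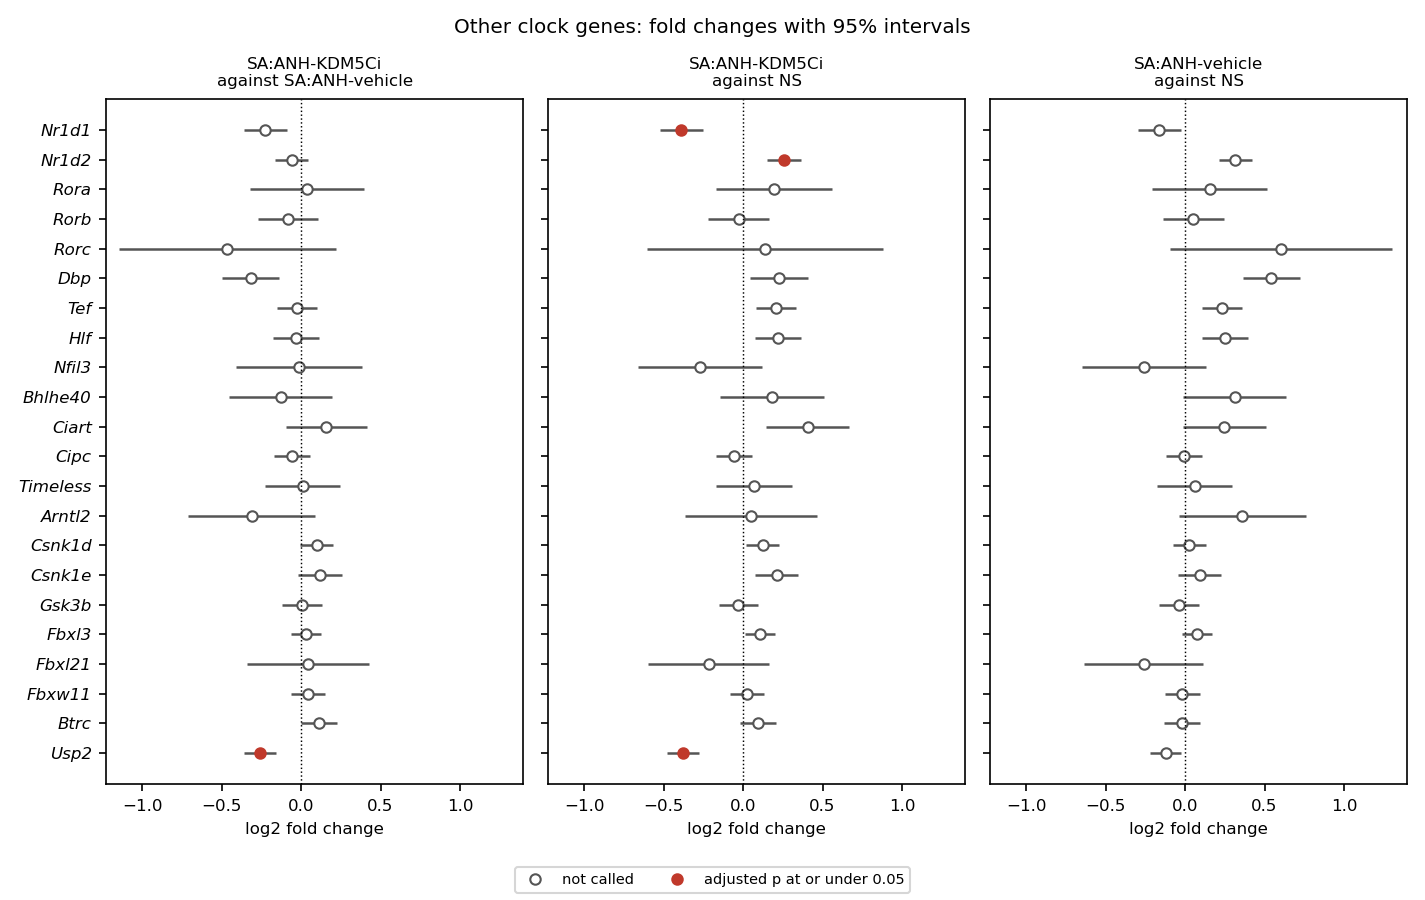
Log2 fold changes of 22 other clock genes with 95% intervals from edgeR's quasi-likelihood fit, in the 3 comparisons, with filled points at an adjusted p of 0.05 or lower. Usp2 is filled in both comparisons of SA:ANH-KDM5Ci, at -0.26 and -0.38, and Nr1d1 and Nr1d2 are filled on opposite sides of 0 against NS, at -0.39 and 0.26.

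Library depth was 30525714 to 40700115 counts in SA:ANH-KDM5Ci, 33733470 to 42196472 in SA:ANH-vehicle and 29845097 to 36033714 in NS. The labelled cortex held its excitatory neuron markers at a summed 7206 to 7344 CPM in SA:ANH-KDM5Ci, 7089 to 7448 CPM in SA:ANH-vehicle and 7448 to 7738 CPM in NS. Other markers differed between libraries. The 8 striatal neuron genes summed to 225 to 550.0 CPM in SA:ANH-KDM5Ci, 196 to 260 CPM in SA:ANH-vehicle and 175 to 308 CPM in NS. The 8 meningeal genes summed to 79.4 to 89.2 CPM in SA:ANH-KDM5Ci, below all of SA:ANH-vehicle at 115 to 185 CPM and of NS at 101 to 164 CPM. Oligodendrocyte genes summed to 2687 to 3511 CPM in SA:ANH-KDM5Ci, 1910 to 3010 CPM in SA:ANH-vehicle and 1472 to 2999 CPM in NS, and 0 of the 8 genes of each list were at 0 in all libraries. Immediate early genes summed to 1033 CPM in NS replicate 1, where the remaining NS libraries had 286 and 273 CPM. They summed to 716, 315 and 471 CPM in SA:ANH-vehicle and to 433, 453 and 373 CPM in SA:ANH-KDM5Ci. The part of these markers in the values of the clock genes was not tested, and in pieces of tissue fewer cells of a type and less RNA per cell cannot be told apart. Strand use in counting is not given in the sources used here. Of the annotated genes that overlap members, those in the table held 0 counts or, for D930015M05Rik within Cry2, 13.8 counts over all libraries.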

How the data were processed

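RNA was extracted from medial prefrontal cortex with a Direct-zol kit and the strand-specific libraries were made with SureSelect reagents, per the labels' protocols. The deposited values are expected counts per NCBI gene ID, 1 column per sample, and need not be whole: 59.6% of the values between 0 and 5 were whole (tolerance 1e-06). Trimmomatic 0.32, TopHat2 2.0.13, Bowtie2 2.2.3 and mm10 are named in the submitters' processing notes. The counting tool is not given in the sources used here. Symbols, positions and promoters came from RefSeq tables of GRCm38.p6 (mm10 is another name for GRCm38), and exon lengths from GENCODE's mouse annotation of GRCm38. Of 36172 features, 32947 had a symbol.

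Expected counts were rounded, filtered with filterByExpr (15144 genes) and scaled by TMM (factors 0.987 to 1.011). The test was edgeR 4.0.16's quasi-likelihood test with robust moderation (R 4.3.3), fitted once to all 9 libraries with a mean for each group, with p-values adjusted by Benjamini-Hochberg over all genes at 0.05. The common biological coefficient of variation was 6.95%. The SE came from the fold change and its F statistic. Depth allows a level of up to 0.101 CPM (3 counts) at a count of 0 in the shallowest library, for counting error only. The labels do not say whether a group's libraries are from different mice. The p-values therefore measure the spread between samples only, and this spread may be technical.

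The members, the lists and the tests were chosen with earlier results of these data known. Named were all members, each other clock gene that passed, at most 3 of lowest p in each of the other clock lists, and Fos, Fkbp5, Sgk1 and Tsc22d3. Genes of like pattern were to be named only for called members, and those given were chosen after the values were seen. Tried as alternatives were limma-voom (limma 3.58.1), DESeq2 1.42.0, DESeq2's size factors in edgeR, no TMM, other filters, no robust moderation, a fit of only the groups compared, a replicate block and leaving out 1 library at a time. The fit was tested on simulated counts with known changes, whose means and depth came from the fit to these data. The spread of a simulated gene was the fitted trend at its level, not the gene's own spread. Of 100 genes changed by 0.5 on the log2 scale, 79% were recovered for SA:ANH-vehicle against NS. For SA:ANH-KDM5Ci against SA:ANH-vehicle and against NS it was 76% each. Of 100 genes changed by 1, 88%, 89% and 85% were recovered in the same order. Unchanged genes called numbered 11, 5 and 5. In the data SA:ANH-vehicle against NS called 2 genes, far fewer than were changed in the simulation, which affects the adjustment of p. For these reasons the shares recovered need not hold for the members.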

Additional observations from a re-analysis of the deposited data

How the results depend on the processing

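Over 18 alternatives, the 24 log2 fold changes of core clock genes kept their sign and their side of the threshold in 389 cases, passed it in 26 and took the other sign in 17, each of these uncalled. The number of core clock genes called was 0 in every comparison. For SA:ANH-vehicle against NS it was 3 with DESeq2, 2 with only the groups compared and 0 to 1 with 1 library left out. For SA:ANH-KDM5Ci against SA:ANH-vehicle it was 1 with DESeq2, with limma-voom, with only the groups compared and without robust moderation, and 0 to 1 with 1 library left out. For SA:ANH-KDM5Ci against NS it was 2 with DESeq2, 1 with limma-voom, with DESeq2's size factors, with no filter, with a CPM of at least 1 in 3 libraries, with only the groups compared and without robust moderation, and 0 to 2 with 1 library left out. The cause of these moves was not tested. All genes called for SA:ANH-vehicle against NS numbered 2, against 11 without TMM, 11 with no filter, 17 with only the groups compared, 81 with DESeq2 and 2 to 17 with 1 library left out (17 without SA:ANH-KDM5Ci replicate 3, 9 without its replicate 1, 4 without SA:ANH-vehicle replicate 1 or 3). With 1 library left out, 203 to 429 genes were called for SA:ANH-KDM5Ci against SA:ANH-vehicle (380 with all, 203 without SA:ANH-vehicle replicate 2, 253 without its replicate 1, 204 without SA:ANH-KDM5Ci replicate 3) and 269 to 747 for SA:ANH-KDM5Ci against NS (601 with all, 279 and 398 without SA:ANH-KDM5Ci replicate 1 and 3, 318 and 269 without NS replicate 2 and 3).

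Cry2 in SA:ANH-vehicle against NS was at -0.0006 with DESeq2's size factors, -0.0005 with the CPM filter, -0.0012 with only the groups compared, -0.0005 with DESeq2 and -0.0237 to 0.0372 with 1 library left out. With 1 library left out, Clock ran from -0.0681 to 0.1059 for SA:ANH-KDM5Ci against NS, from -0.0155 to 0.1492 for SA:ANH-KDM5Ci against SA:ANH-vehicle and from -0.1339 to 0.0471 for SA:ANH-vehicle against NS. Likewise Cry1 ran from -0.0110 to 0.1683 and Tef and Hlf from -0.0829 to 0.0074 and -0.0936 to 0.0336 for SA:ANH-KDM5Ci against SA:ANH-vehicle, and Per1 from -0.1584 to 0.1302 and Sgk1 from -0.0422 to 0.0903 for SA:ANH-vehicle against NS. Fos ran from -0.7008 to 1.1712 for SA:ANH-vehicle against NS (0.0292 with the replicate block and 0.2091 with limma-voom), from -0.5770 to 0.2265 for SA:ANH-KDM5Ci against SA:ANH-vehicle and from -0.8613 to 0.8642 for SA:ANH-KDM5Ci against NS.

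The replicate numbers were not taken to pair the samples, as no block or batch is given. The correlation of same-numbered libraries' deviations from their group means ran from -0.14 to 0.24. Between SA:ANH-KDM5Ci and SA:ANH-vehicle it was 0.24, 0.08 and 0.18, against -0.25 to 0.09 for libraries of unlike number. In the other comparisons the same-numbered values lay within the range of the unlike ones. Shared handling of same-numbered libraries was not tested. With the replicate number as a block, 363 genes were called for SA:ANH-KDM5Ci against SA:ANH-vehicle, 708 for SA:ANH-KDM5Ci against NS and 2 for SA:ANH-vehicle against NS, and 0 core clock genes in each.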
